A study of Mus musculus with 2 samples.

Results

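The genes described here encode the factors that start, carry forward and end protein synthesis on cytosolic ribosomes. They were taken by symbol: every probe set of the array whose annotation names exactly 1 gene, with a symbol beginning Eif1 to Eif6, Eef1, Eef2 or Pabpc, or the symbol Etf1 or Gspt1. This gave 76 probe sets for 54 genes, among 12488 probe sets and 8251 named genes in all. The rule also takes in regulators that share these symbols, among them the kinases of eIF2 (Eif2ak), the repressors that bind eIF4E (Eif4ebp) and Eef1akmt1, an enzyme that methylates eEF1A. Total RNA came from mouse 3T3 fibroblasts, an immortalised and normally adherent line from mouse embryos, and each condition was read on 1 Affymetrix MG_U74Av2 array. In the fibronectin condition the cells, in serum-free DMEM, were plated for 30 min on fibronectin at 10 µg/ml, a matrix glycoprotein that cells hold through integrins. In the suspension condition they were kept unattached in serum-free DMEM, for a time that is not given here. The labels name no transgene, deletion or further agent in either condition. As each condition was read once, no replicate spread could be formed and no p-value is given. The words higher and lower compare these 2 arrays and no more.

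Translation begins when eIF2 brings the initiator tRNA to the small ribosomal subunit, eIF3 holds that complex together, and the eIF4 proteins bind the mRNA cap, unwind the leader and recruit the ribosome. eIF1 and eIF1A help to select the start codon, eEF1A delivers each amino acid, eEF2 moves the ribosome along, and the release factors end the chain. In fibroblasts these steps are controlled mostly on the proteins, through kinases of eIF2 and through mTOR and its target 4E-BP, so that an array reads the supply of their mRNAs and not their activity.

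Signals were MAS5 intensities, brought to a common 2% trimmed mean. Signals under 490, the average of the 40th percentiles of both arrays, were raised to that floor, and a gene was measured if its signal reached the floor on at least 1 array. The brightest probe set stood for a gene, and ratios are log2 differences, fibronectin minus suspension. Signals of different probe sets are not compared with each other, since brightness depends on the probes. The 34 negative control probe sets reached a 95th percentile of 1873 on the fibronectin array and 1403 on the suspension array, and signals under these levels are called dim below. Of 13 fibroblast markers, 10 on fibronectin and 11 in suspension lay above these levels, with summed signals of 268100 and 186025. Of 32 named markers of 6 other cell types or tissues, 2 on fibronectin and 6 in suspension did, and the sum of a list ran from 1117 to 6599 on fibronectin and from 2010 to 8538 in suspension. In bulk RNA, fewer cells of a type and less RNA per cell cannot be told apart.

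Most measured translation factor genes had signals within 1.5-fold of each other in the conditions. Of the 54 genes, 47 were measured, and 37 of these (78.7%) were within 1.5-fold, beside 61.6% of all measured genes. Within 1.2-fold were 23 (48.9%), beside 30.6% of all. Where 1 array was below the floor the ratio is a bound, and it was counted at that bound, among all genes too. Eif2ak4, at least 1.12-fold higher, is counted in this way in both member shares and may lie outside them. On fibronectin 7 genes were 1.5-fold or more higher, which is 14.9% of the measured members beside 15.9% of all 6385 measured genes. Only 3 were 1.5-fold or more lower, which is 6.38% beside 22.6% of all measured genes. At 2-fold, 2 were higher and 1 lower, beside 5.79% and 9.27% of all measured genes. The median log2 ratio of the members was -0.03, with 22 above 0 and 25 below, and that of all measured genes was -0.09.

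Brightness differed between the members and the other genes, and it bears on these shares. Both signals lay above the negative controls for 27 of the 47 members and for 2263 of all 6385 measured genes. Among these brighter genes, 5 members were 1.5-fold or more higher and 0 lower, beside 16.9% and 7.29% of all genes so measured. At 2-fold, 2 members were higher and 0 lower, beside 3.8% and 1.02%. Their median log2 ratio was 0.03 for the members and 0.09 for all genes. The SD of the ratios across these brighter genes was 0.42 for members and 0.50 for all. Within 1.5-fold were 81.5% of these members and 75.8% of these genes. By tertile of signal, members and all genes within 1.5-fold were 85.7% and 55.7% in the lowest (7 members), 71.4% and 56.5% in the middle (14 members) and 80.8% and 72.6% in the highest (26 members). These differences were not tested.

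**Figure D1:**
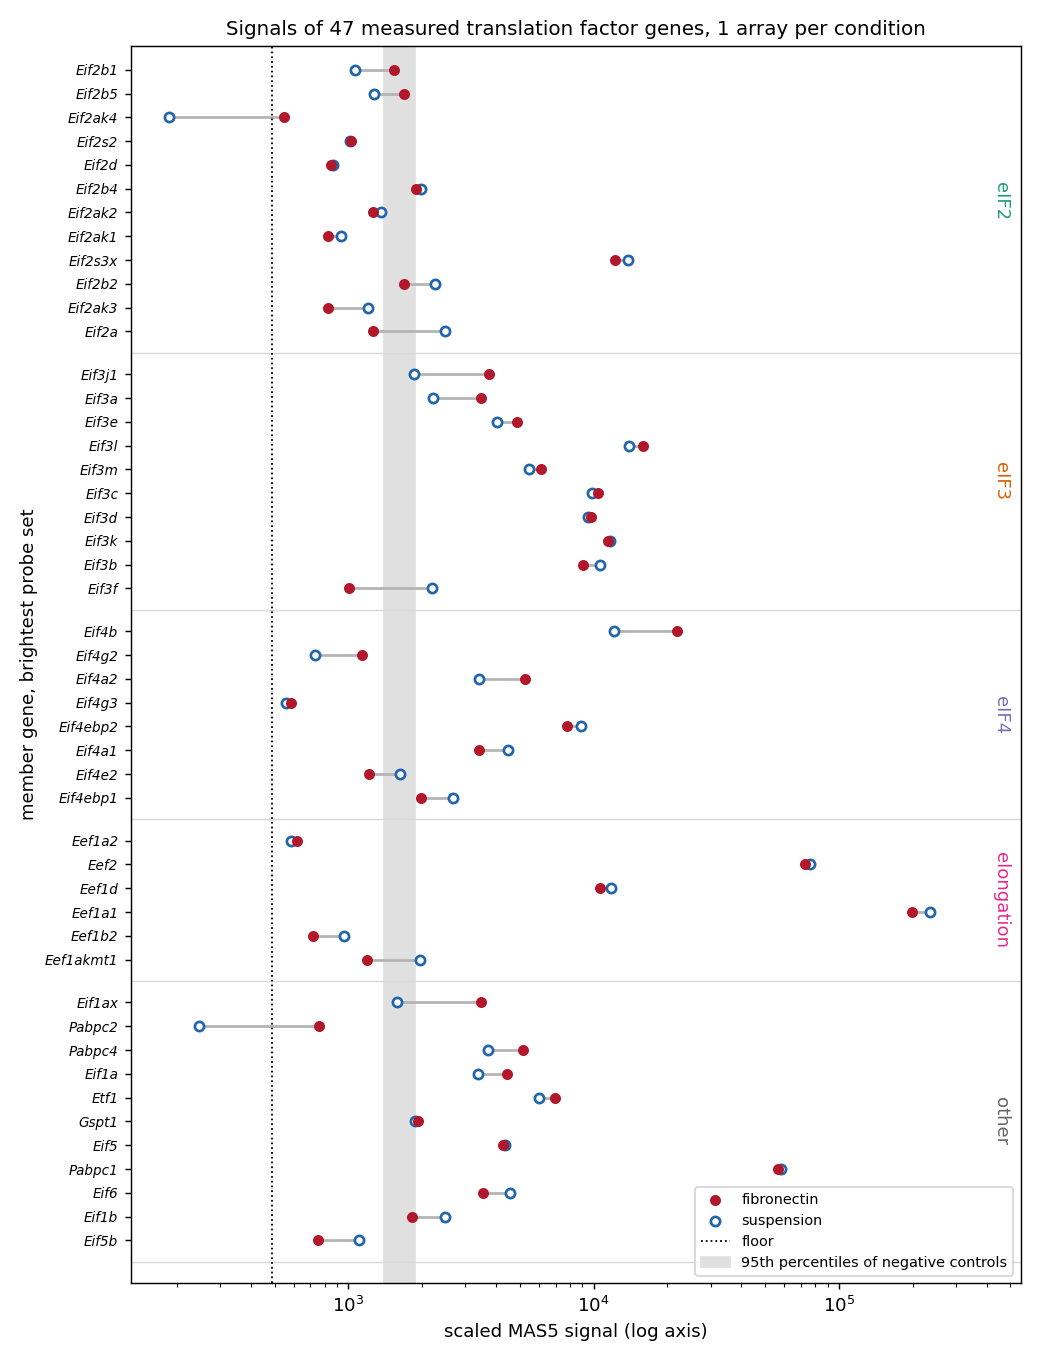
Scaled MAS5 signals (log axis) of the 47 measured translation factor genes, 1 row per gene and 1 array per condition, with fibronectin as filled red points and suspension as open blue points. The dotted line is the floor of 490 and the grey band spans the 95th percentiles of negative controls on the arrays, 1403 and 1873; most pairs of points lie close together, and the widest gaps, apart from Eif2ak4 and Pabpc2 whose suspension signals lie below the floor, are those of Eif1ax, Eif3f, Eif3j1 and Eif2a.

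**Figure D2:**
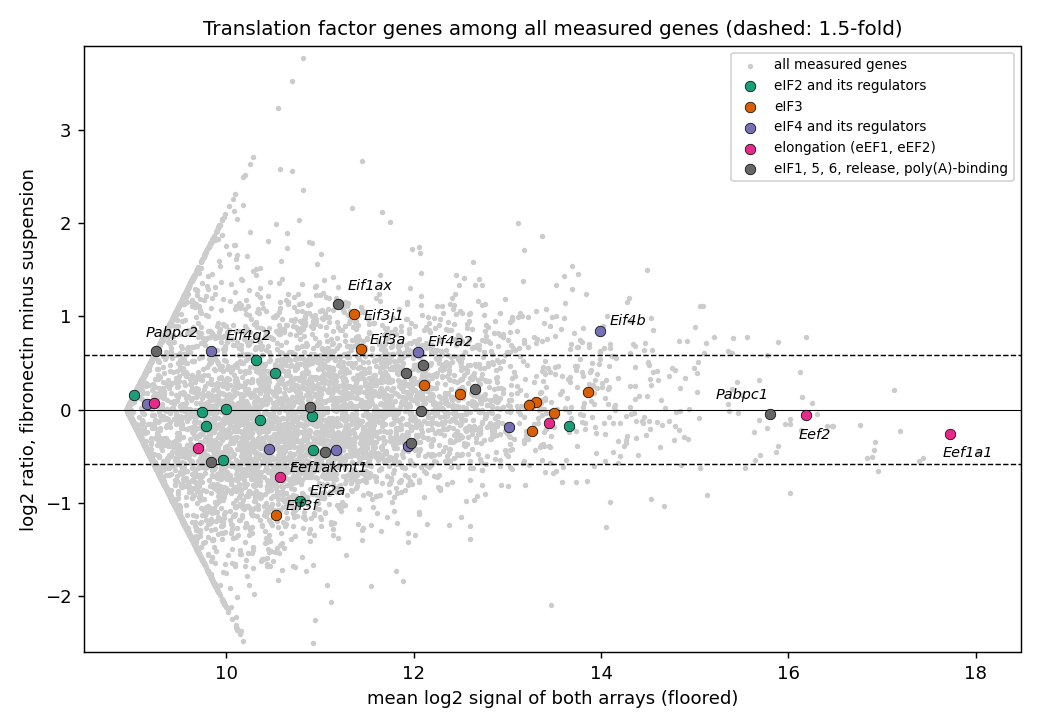
Log2 ratio, fibronectin minus suspension, against the mean log2 signal of both arrays after flooring, for all 6385 measured genes (grey) and the 47 measured translation factor genes (coloured by group). Dashed lines mark 1.5-fold; 7 members lie on or above the upper line and 3 on or below the lower one, and Eef1a1, Eef2 and Pabpc1, at the right, have ratios of -0.26, -0.06 and -0.04.

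The only repeat measurement of a ratio within 2 arrays is a gene's second probe set, which repeats the probes and not the culture. Over 1146 genes with more than 1 measured probe set, the difference between the ratios of the 2 brightest had an SD of 0.97, or 0.69 for a single ratio. Where both probe sets lay above the negative controls on both arrays (197 genes), the SD of a single ratio was 0.40. The 1.5-fold limit, 0.58 on the log2 scale, lies between these SDs of a single ratio. Of the 47 measured members, 36 rest on 1 measured probe set.

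The eIF2 group holds the factor that carries the initiator tRNA, its exchange factor eIF2B and the kinases that switch it off. Of 13 genes, 12 were measured, with a median of -0.09. With Eif2ak4 counted at its bound, 0 were 1.5-fold or more higher and 1 (8.33%) was lower, beside 15.9% and 22.6% of all measured genes. Groups this small can hardly be told apart from these shares, and no difference of this kind was tested. The gamma subunit gene Eif2s3x, which binds GTP and the tRNA, had signals of 12182 on fibronectin and 13794 in suspension. The beta subunit gene Eif2s2 had 1023 and 1019 in its brighter probe set, and 1187 and 627 in the other, a log2 ratio of 0.92. Its 2 probe sets thus differ, and all 4 signals are dim. The alpha subunit gene was not analysed here, and the Y-linked gamma gene Eif2s3y lay below the floor on both arrays.

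Eif2a encodes eIF2A, a separate protein that can deliver initiator tRNA without eIF2 and is not a subunit of it. It was the 1 gene of this group past 1.5-fold, with 1260 on fibronectin and 2478 in suspension (1.97-fold lower). The fibronectin signal was dim. With the floor at the level of the negative controls the log2 ratio was -0.60, and it stayed past 1.5-fold under all 12 alternative settings.

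Of the 4 kinases that phosphorylate eIF2 in response to different stresses, 3 lay below 0 and 1 above. Eif2ak3 (PERK, the sensor of misfolded protein in the endoplasmic reticulum) had 826 on fibronectin and 1199 in suspension, a log2 ratio of -0.54 that lies just inside 1.5-fold. Eif2ak1, sensor of haem shortage, had 829 and 935, and Eif2ak2, sensor of double-stranded RNA, 1264 and 1359. Eif2ak4 (GCN2, the sensor of amino acid shortage) had 546 on fibronectin and 185 in suspension, where it was below the floor, so that it was at least 1.12-fold higher. All 8 signals of these kinases were dim. Beside an SD of 0.69 for a single ratio, these values cannot show whether the kinases differ from each other.

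The eIF2B subunit genes, whose product recharges eIF2 with GTP, lay on both sides of 0, all within 1.5-fold. Eif2b1 (alpha) had 1538 on fibronectin and 1061 in suspension, a log2 ratio of 0.54, also just inside 1.5-fold. Eif2b2 (beta) had 1682 and 2260, a log2 ratio of -0.43, and Eif2b4 (delta) had 1881 and 1974. The catalytic epsilon gene Eif2b5 had a log2 ratio of 0.40 in its brighter probe set and -0.33 in the other, so its direction was not settled. Eif2d, an initiation factor that can place the tRNA without eIF2, had 849 and 866.

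The eIF3 group, the large scaffold on the small ribosomal subunit, was the one best measured, with 10 of 10 genes above the floor and 9 of them above the negative controls on both arrays. Here 2 genes (20%) were 1.5-fold or more higher and 1 (10%) lower, beside 15.9% and 22.6% of all measured genes. Above 0 were 7, beside 2870 of all 6385 measured genes, and the median was 0.12. In 7 of the 10 genes the conditions were close, among them 5 subunits of the structural core. Eif3c had 10395 on fibronectin and 9848 in suspension, Eif3k 11417 and 11682, and Eif3m 6115 and 5437. Eif3e had 4866 and 4036, and Eif3l 15878 and 13903, while a dimmer second probe set of Eif3l was at least 1.25-fold lower. Eif3d, the subunit that can bind the cap of some mRNAs, had 9770 and 9443, and the RNA-binding subunit gene Eif3b 9059 and 10650. None of these 7 differed by more than 1.21-fold.

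The 3 eIF3 genes past 1.5-fold, with core subunits among them, lay on both sides. Eif3j1 encodes a loosely bound subunit that sits near the decoding centre, and had 3753 on fibronectin and 1850 in suspension, 2.03-fold higher. Mouse carries a closely related gene, Eif3j2, whose mRNA its probes may also detect. Eif3a, the largest subunit and the base of the complex, had 3470 and 2214, 1.57-fold higher. Eif3f, a core subunit also known as a binding partner of mTOR in muscle, had 1002 and 2194, 2.19-fold lower. Its fibronectin signal was dim, and with the floor at the negative controls its log2 ratio was -0.42. Each of these genes has 1 measured probe set.

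In the eIF4 group, which recognises the cap and opens the mRNA leader, 8 of 11 genes were measured, with a median of -0.06. Of these, 3 (37.5%) were 1.5-fold or more higher and 0 lower, beside 15.9% and 22.6% of all measured genes, a difference not tested. The helicase genes went opposite ways: Eif4a2 had 5243 on fibronectin and 3411 in suspension (1.54-fold higher), and Eif4a1 had 3421 and 4477 (log2 ratio -0.39). Their coding sequences are closely related, and the Eif4a1 probe set was chosen by Affymetrix under relaxed rules. After quantile normalization and loess the log2 ratio of Eif4a2 was 0.54 and 0.55, inside 1.5-fold.

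Eif4b, which stimulates the helicase, had the widest disagreement among its probe sets. The brightest had 21841 on fibronectin and 12134 in suspension (1.80-fold higher), and another had 3805 and 1199 (3.17-fold higher). A dim one had 112 and 1344, at least 2.74-fold lower, and the last was below the floor on both arrays. Both higher probe sets carry suffixes for shared probes or relaxed probe selection. Without probe sets of such suffixes the log2 ratio of Eif4b was -1.46, so its direction was not settled.

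The scaffold gene Eif4g2 (DAP5, which lacks the site for eIF4E) had 1137 on fibronectin and 734 in suspension, 1.55-fold higher, and Eif4g3 had 583 and 558. All 4 signals were dim, and the log2 ratio of Eif4g2 was inside 1.5-fold with the floor at the 60th percentile (0.11), with a pseudocount (0.57) and with scaling to the spikes (0.16). The main cap-binding gene Eif4e lay below the floor in both of its probe sets, and the repressive cap-binding relative Eif4e2 had 1216 and 1622. The 4E-BP genes, whose products hold eIF4E away from eIF4G, were close to 0 or lower in their brightest probe sets. Eif4ebp1 had 1976 and 2667, a log2 ratio of -0.43, and Eif4ebp2 had 7790 and 8862, a log2 ratio of -0.19. The second probe set of Eif4ebp2 gave -0.02, and the dimmest was at least 1.75-fold higher.

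In the elongation group none of the measured elongation factor genes passed 1.5-fold. Of 8 genes, 6 were measured, and 5 of these lay below 0, beside 3515 of all 6385 measured genes. None was 1.5-fold or more higher and 1 (16.7%) was lower, beside 15.9% and 22.6% of all measured genes, and the median was -0.20. Eef1a1, which delivers aminoacyl-tRNA and is among the most abundant proteins of a cell, had 197918 on fibronectin and 236259 in suspension, a log2 ratio of -0.26 that was -0.05 under median scaling and 0.0 after quantile normalization. Eef2, the translocase, had 72998 and 76055, a log2 ratio of -0.06. Eef1d, a subunit of the exchange factor that reloads eEF1A, had 10607 and 11731, a log2 ratio of -0.15. These 3 genes differed by at most 1.19-fold.

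The other elongation genes were dim on at least 1 array. Eef1b2, the catalytic exchange subunit, had 721 on fibronectin and 958 in suspension in its brighter probe set, and 802 and 702 in the other. Eef1a2, the eEF1A form of muscle and neurons, had 615 and 585. The gene past 1.5-fold was the methyltransferase gene Eef1akmt1, which is no elongation factor itself, with 1188 and 1963 (1.65-fold lower). The log2 ratio of Eef1akmt1 was inside 1.5-fold under median scaling (-0.52), after loess (-0.58) or with the floor at the negative controls (-0.26). Eef1g and the eEF2 kinase gene Eef2k were below the floor on both arrays. The median of this group lay below that of all measured genes in each of 13 settings, with differences of -0.19 to -0.03, and reached 0.01 under median scaling. These settings use the same 2 arrays, and the difference was not tested.

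The remaining genes act in start codon selection, subunit joining, termination and poly(A) binding. Of 12 genes, 11 were measured, with a median of 0.03. Of these, 2 (18.2%) were 1.5-fold or more higher and 0 lower, beside 15.9% and 22.6% of all measured genes. In both eIF1A genes all measured probe sets went 1 way, as they did in Eif2s2, where the lowest log2 ratio was 0.01. Eif1ax had 3465 on fibronectin and 1581 in suspension (2.19-fold higher), and 1120 and 776 in its second probe set (log2 ratio 0.53). Eif1a had 4439 and 3387 (log2 ratio 0.39), and 2712 and 1404 in its second probe set (1.93-fold higher). The 4 probe sets were higher on fibronectin by 1.31-fold to 2.19-fold. The genes encode closely related proteins, so the probe sets may each detect both mRNAs and may not be independent. Eif1ax stayed past 1.5-fold under all 12 alternatives, with log2 ratios from 0.66 to 1.34. With scaling to the spikes the log2 ratio of Eif1a was -0.08.

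Other genes of the early steps lay within 1.5-fold. Eif1b, a relative of the start codon factor eIF1, had 1812 on fibronectin and 2486 in suspension, and Eif5, which triggers GTP hydrolysis by eIF2, had 4284 and 4341. Eif6, which keeps the large subunit free until it is needed, had 3544 and 4545. Eif5b, the GTPase that joins the subunits, had 754 and 1108 in its brighter probe set, a log2 ratio of -0.56 just inside 1.5-fold. Its other probe set was at least 2.33-fold higher, with 1142 and 442, so its direction was not settled. Eif5a, which helps ribosomes past difficult peptide bonds, was below the floor on both arrays.

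Termination and poly(A) binding showed the same reliance on the probe set. Etf1 (eRF1, which reads the stop codon) has 5 measured probe sets, of which 4 were higher on fibronectin. The brightest had 6981 on fibronectin and 5988 in suspension, a log2 ratio of 0.22. The others gave 1.16, 0.58 and 0.18, while the dimmest was at least 1.89-fold lower. The brightest carries a suffix for shared probes or relaxed probe selection, and without probe sets of such suffixes the log2 ratio of Etf1 was 1.16. The release GTPase gene Gspt1 had 1915 and 1873. Pabpc1, the main poly(A)-binding protein, which links the mRNA tail to eIF4G, had 56259 and 58038. Pabpc4 had 5162 and 3716 (log2 ratio 0.47), while its second probe set was lower by at least 2.67-fold. Pabpc2 had 757 on fibronectin and 246 in suspension, so it was at least 1.54-fold higher, with both signals dim.

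**Figure D3:**
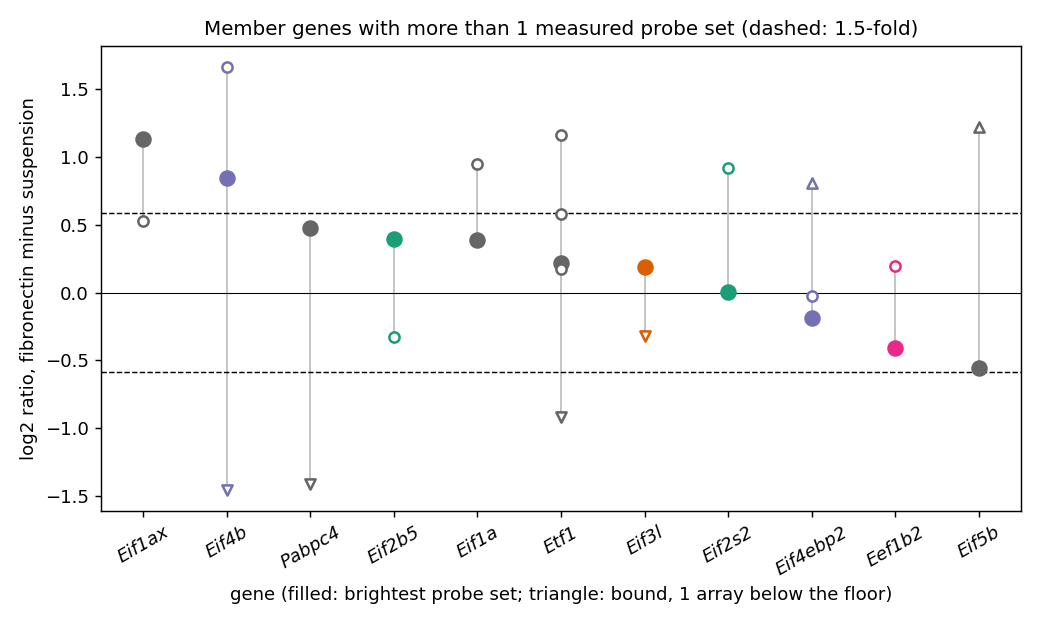
Log2 ratio, fibronectin minus suspension, of every measured probe set of the 11 member genes with more than 1. Filled symbols are the brightest probe set of a gene, triangles are bounds with 1 array below the floor, and dashed lines mark 1.5-fold. Eif1ax, Eif1a and Eif2s2 lie wholly above 0, Eif2s2 with its brightest probe set at 0.01. The other 8 genes, among them Eif4b, Pabpc4, Etf1 and Eif5b, reach from one side to the other.

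Across the 16 member genes with more than 1 probe set, 11 had more than 1 measured. In 8 of these 11 the measured probe sets lay on both sides of 0, and in 2 they passed 1.5-fold in opposite directions, Eif4b and Etf1. The 2 brightest probe sets agreed in sign in 54.5% of these 11, beside 59.2% of all 1146 genes with more than 1 measured. The share was 70.6% in the 197 genes with both probe sets above the negative controls on both arrays. Such disagreement is thus not particular to the members, and 1 probe set does little to settle a direction, above all where signals are dim. Over all 63 measured probe sets, 13 were 1.5-fold or more higher and 6 lower. Shares over all probe sets were not formed, and of all measured genes 15.9% were higher and 22.6% lower. Of the 63, 32 lay above 0 and 31 below, and the median was 0.01. A division made after the values were seen set apart the 7 measured regulators and modifiers. Of these, 6 lay below 0, beside 3515 of all 6385 measured genes. The median of the 7 was -0.19, beside -0.09 for all measured genes, and no difference by this division was tested. The 40 measured factors proper had a median of 0.02. Of these, 7 (17.5%) were 1.5-fold or more higher and 2 (5%) lower, beside 15.9% and 22.6% of all measured genes.

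Messages of elongation factors and ribosomal proteins are known for a 5′ terminal oligopyrimidine tract, a C at the cap followed by an unbroken run of C and T, through which mTOR and LARP1 control their translation. RefSeq starts of the GRCm38.p6 assembly were therefore read for a run of 5 or more C or T that opens with C within 5 bases of the start, on the transcribed strand. The table of start sequences, which is separate from the RefSeq table of gene names, has an entry for 43 of the 54 genes. The other 11, with Pabpc1, Eef1d and Eef1g among them, were not read. Such a run was found in 10 of the 43 (23.3%), beside 19.7% of 27025 genes of the table. The 5 longest runs among measured members are shown because they let the tract be set beside the ratio. Each line gives 10 bases before and 20 bases after the start, with the run in capitals.
Eef1a1: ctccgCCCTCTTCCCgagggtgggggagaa
Eif2b5: ctctttCTCTCCCTgcaactacaccttcgc
Eif2s3x: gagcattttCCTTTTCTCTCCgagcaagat
Eif3f: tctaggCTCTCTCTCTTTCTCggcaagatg
Eif3l: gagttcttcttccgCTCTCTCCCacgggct

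The windows lie at chr9:78481705-78481734 (minus strand) for Eef1a1, chr16:20498807-20498836 (plus) for Eif2b5 and chrX:94212632-94212661 (minus) for Eif2s3x. Those of Eif3f and Eif3l are chr7:108934405-108934434 and chr15:79075213-79075242, both on the plus strand. The marked runs were 10, 8, 12, 15 and 9 bases long in the order printed. A run is marked only from its first C within 5 bases of the start, and the whole stretch of C and T reached further upstream in Eif2b5 (19 bases). The log2 ratios of these genes were -0.26, 0.40, -0.18, -1.13 and 0.19 in the same order, so genes with a long run lay on both sides of 0. Among the measured members with an entry, the 8 with a run had a median of -0.18 (0 genes 1.5-fold or more higher and 1 lower). The 29 without one had a median of -0.02 (5 higher and 1 lower). Of all measured genes, 15.9% were higher and 22.6% lower. No difference between members with and without a run was tested. Annotated starts can lie some bases from those used in these cells, and Eef2 had no such run within 5 bases of its annotated start.

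Among 42 upstream regulators and partners of these factors, 30 were named on the array and 29 measured. Of these, 4 were 1.5-fold or more higher on fibronectin and 4 lower, 13.8% each, beside 15.9% and 22.6% of all measured genes, and the median was -0.02. Under median scaling 7 were higher and 3 lower, beside 23.3% and 15.4% of all measured genes at that setting. Scaling to the spikes gave 1 and 12, beside 5.77% and 45.9%. The floor at the negative controls gave 2 and 0, beside 13.0% and 9.37%. The furthest from 0 were Mknk1, a kinase of eIF4E, with 1850 on fibronectin and 699 in suspension (2.64-fold higher), and Rps6kb2, an S6 kinase downstream of mTOR, with 865 and 2249 (2.60-fold lower). Both signals of Mknk1 and the fibronectin signal of Rps6kb2 were dim. Next came the ribosome rescue gene Pelo, 1.91-fold lower in its brighter probe set but with a log2 ratio of 1.04 in the dimmer. Ppp1r15b, which directs a phosphatase to eIF2, had 9310 and 5177 (1.80-fold higher). Of 11 mitochondrial translation factors, 4 were measured and all 4 lay below 0, beside 3515 of all 6385 measured genes. None was 1.5-fold or more higher and 1 (25%) was lower, beside 15.9% and 22.6% of all measured genes. Gfm1 had 529 and 920 (1.74-fold lower), Mtif2 1260 and 1845, Tsfm 1384 and 1672, and Tufm 2380 and 2454, with a median log2 ratio of -0.41. Only Tufm, in its brighter probe set, was above the negative controls on both arrays, and its other probe set gave a log2 ratio of -0.49.

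**Figure D4:**
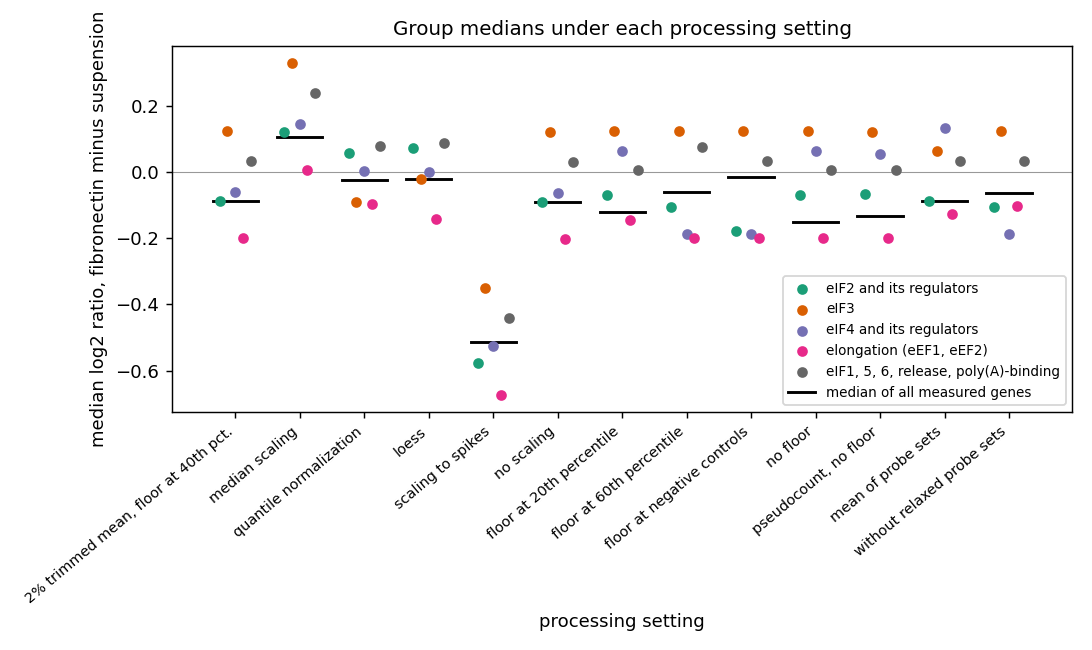
Median log2 ratio, fibronectin minus suspension, of each group of translation factor genes (coloured points) and of all measured genes (black bars) under the reported setting, at the left, and the 12 alternatives. Scaling to the spikes lowers every group together with all genes, to -0.51 for all genes, and group medians minus the bar run from -0.19 to 0.27 over all settings.

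The scaling decides the sign of small ratios. Hybridisation spikes are control transcripts added in known amounts. Their 9 probe sets, several of which detect the same transcript, were all brighter on the fibronectin array, by 0.47 on average on the log2 scale. Scaled to them, 1 member (2.17%) was 1.5-fold or more higher and 18 (39.1%) lower, beside 5.77% and 45.9% of all measured genes. The median was then -0.50 beside -0.51 for all measured genes. Median scaling gave 11 higher (23.4%) and 2 lower (4.26%), beside 23.3% and 15.4% of all. The member median was then 0.18 beside 0.11. Relative to all genes the member median thus moved only between -0.02 and 0.12 over the 13 settings. Of the 10 genes past 1.5-fold, Eif1ax and Eif2a stayed past it under every alternative, and 9 kept their direction wherever they were measured, the exception being Eif4b. Direction could hardly change under these settings. The shift with the spikes, 0.47, is smaller than the limit of 0.58, and most of these genes have 1 probe set. A floor cannot reverse the sign of 1 probe set, but it can change which probe set is brightest. Eif5b, not among the 10, went in this way from -0.56 to 0.12 with the floor at the 60th percentile. The arrays also differed in chip lot, operator, fluidics module and scan day, which cannot be told apart from the conditions.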

How the data were processed

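The authors deposited 1 linear intensity for each probe set, and the submitters' processing notes name MAS5 as the tool. Its version and scaling target are not given here, and detection calls were not used. The deposited intensities had 2% trimmed means of 1486 on fibronectin and 1489 in suspension. The series text mentions replicates, whereas the labels give 1 sample per group, so no test was made.

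Arrays were scaled to a common trimmed mean (2% from each end, 12422 probe sets without controls). Signals were then floored, and log2 was taken. Names came from the platform annotation (10855 with 1 symbol, 396 with several, not named), and 54 of 54 member symbols matched the RefSeq gene table of GRCm38.p6. Levels were not compared between probe sets.

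Members and gene lists were chosen with earlier results of these data known. Named were genes past 1.5-fold, with several probe sets, with bright signals or of a core complex, and the 4 furthest of each list. Alternatives were 12 settings of scaling, floor, pseudocount and probe set choice. Python 3.11.15, pandas 2.3.3 and statsmodels 0.14.6 were used. The calculation of the ratio was tested on simulated arrays with little noise and with changes in bright probe sets only. That test checks the arithmetic and cannot tell how reliable the ratios of these arrays are.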

Additional observations from a re-analysis of the deposited data

How the results depend on the processing

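No paired analysis was possible because each condition has 1 array. Of 12 alternatives, scaling to the spikes moved the most. At 1.5-fold, 1 member was higher and 18 lower (2.17% and 39.1%), beside 5.77% and 45.9% of all measured genes. At 2-fold, 0 were higher and 5 lower, and shares of all genes at 2-fold were not formed for the alternatives. The medians were then -0.50 for all members, -0.58 for eIF2, -0.35 for eIF3, -0.52 for eIF4, -0.67 for elongation, -0.44 for the remaining genes, -0.47 for upstream regulators and -0.89 for mitochondrial factors. Median scaling gave 11 genes 1.5-fold or more higher (23.4%, beside 23.3% of all measured genes). It gave medians of 0.18 for members and 0.20 for upstream regulators, and 0 genes 2-fold lower. Quantile normalization and loess also gave 0 genes 2-fold lower. With the floor at the negative controls, 1 gene was 1.5-fold or more lower (3.03%, beside 9.37% of all) and 0 passed 2-fold lower. With no floor, 5 genes were 1.5-fold or more lower (9.26%, beside 30.7% of all), and 5 were 2-fold higher and 3 lower. With a pseudocount of 100 these were 5 (beside 26.1% of all), 4 and 2. The floor at the 20th percentile gave 5 genes 2-fold higher and 2 lower. The mean over probe sets gave 1 gene 2-fold higher, and leaving out relaxed probe sets 2 genes 2-fold lower. In that last setting Eif4b turned to -1.46. Each of these shifts follows from the setting changed, and whether a scaling or a culture difference lies behind the spike signals was not tested. Of 540 values of single genes under an alternative, 530 moved by no more than the spread between probe sets, 0.69. That spread is wider than the 1.5-fold limit of 0.58, and several settings leave most ratios nearly unchanged. The count therefore cannot show that calls at 1.5-fold are stable. Signals near the negative controls, which hold 20 of the 47 measured members on at least 1 array, and 10 of the 12 measured eIF2 genes, limit what can be read there.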
